A study of Mus musculus with 6 samples.

Results

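Myelin and oligodendrocyte lineage genes were followed in 6 samples of microglia taken from mice with acute ischemic stroke (AIS). The group comprised 35 genes chosen by name, found through the accession of each probe, out of 18222 named genes that could be tested on the array. It held 25 genes of mature myelin, 5 transcription factors of the lineage and 5 genes of precursors or newly formed oligodendrocytes. All mice were on a C57BL/6 background, were 10 weeks old and male per the labels, and had received tamoxifen before transient occlusion of the middle cerebral artery. The 3 control samples came from PGC-1α f/f mice, which carry a PGC-1α and eGFP transgene that stays silent until Cre acts on it. The 3 mPGC-1α samples came from littermates that carried, besides that transgene, a tamoxifen-inducible Cre driven by Cx3cr1, a gene active in microglia and other mononuclear phagocytes. Cells were selected with magnetic beads against the microglial receptor P2RY12, after a Percoll gradient meant to take away myelin and debris. The time between the stroke and the isolation is not given in the sources used here.

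Oligodendrocytes wrap axons of the brain in myelin, a stack of lipid-rich membrane held together by a small set of abundant proteins. They arise from precursor cells that carry the receptor Pdgfra, pass through a short newly formed stage, and then switch on the myelin genes under factors such as Sox10, Olig1, Olig2 and Myrf. Microglia make little of this RNA themselves, and after injury they engulf myelin. In bulk RNA such as this, more cells of a type and more RNA per cell cannot be told apart.

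The level of a gene is given here as log2 of its signal minus the 75th percentile of the array, so that a level of 0 is that percentile and a difference of 1 is a factor of 2. All 15 microglia markers were well above background on all 6 arrays, among them P2ry12, Tmem119 and Cx3cr1. Higher Ppargc1a was not seen in the libraries labelled mPGC-1α, and whether its probes read the transgene is not given in the sources used here. The brighter Ppargc1a probe stood at -1.44, -0.94 and -0.93 on control arrays 1 to 3 and at -1.49, -1.27 and -1.54 on mPGC-1α arrays 1 to 3 (difference -0.33, SE 0.24, limma adjusted p = 0.817). Cx3cr1, the gene whose promoter drives the Cre, was the only microglia marker at least 2-fold lower with an unadjusted p below 0.05, at 3.81, 3.28 and 3.71 on the control arrays and 2.38, 1.95 and 2.72 on the mPGC-1α arrays (difference -1.25, SE 0.24, limma adjusted p = 0.669), with no overlap. Control array 2 stood apart in another way, since 4 of 7 probes of Y-linked genes were well above background on that array alone, and Xist, the RNA of the inactive X chromosome, was at -5.21 there against -0.97 to -0.51 on the other 5 arrays. All samples are labelled male, so the sex of 5 libraries goes against the label, and several results are given also without control array 2. Between 71.0% and 86.5% of the spots were well above background on an array, and the lowest shares, 73.5% and 71.0%, were those of control array 3 and mPGC-1α array 3, which shared the second of the slides. No label says that the samples came from separate animals, so that p-values measure the spread between these samples.

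Most myelin genes were higher on the mPGC-1α arrays, but none passed the test across the array. Of the 34 members that could be tested, 30 were higher and 4 were lower. Their median difference was 0.60, against 0.09 for all genes tested. Mature myelin genes had a median of 0.86, the lineage transcription factors of 0.60 and the precursor and newly formed genes of 0.22. Septin4, Fa2h, Mal, Ppp1r14a and Cldn11 stood more than 3 times as high on average on the mPGC-1α arrays. On the probe with the highest mean, Mbp, Cryab, Evi2a, Qdpr, Myrf and Pdgfra differed by less than 0.15 in either direction. Other probes of Mbp, Qdpr and Pdgfra differed by more.

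No probe of any gene passed an adjusted p of 0.05 in limma, 0 of 40745 probes or 0%, while 2912 passed before adjustment. The adjusted p of the members ran from 0.669 to 0.995. Before adjustment 11 of the 34 members passed 0.05 with a higher level on the mPGC-1α arrays (32.4%), and 2.97% of all genes did so. At least 2-fold higher with an unadjusted p below 0.05 were 9 members (26.5%), against 0.856% of all genes. The share of members that were higher by any amount was 88.2%, and that of all genes was 61.7%. Among the 30 members with a value on all 6 arrays, 8 had every mPGC-1α array above every control array (26.7%), and 7.34% of all genes with 6 values did. With 3 arrays against 3 the exact two-sided permutation test of a single gene cannot go below p = 0.1, the value of each of these 8 genes.

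**Figure D1:**
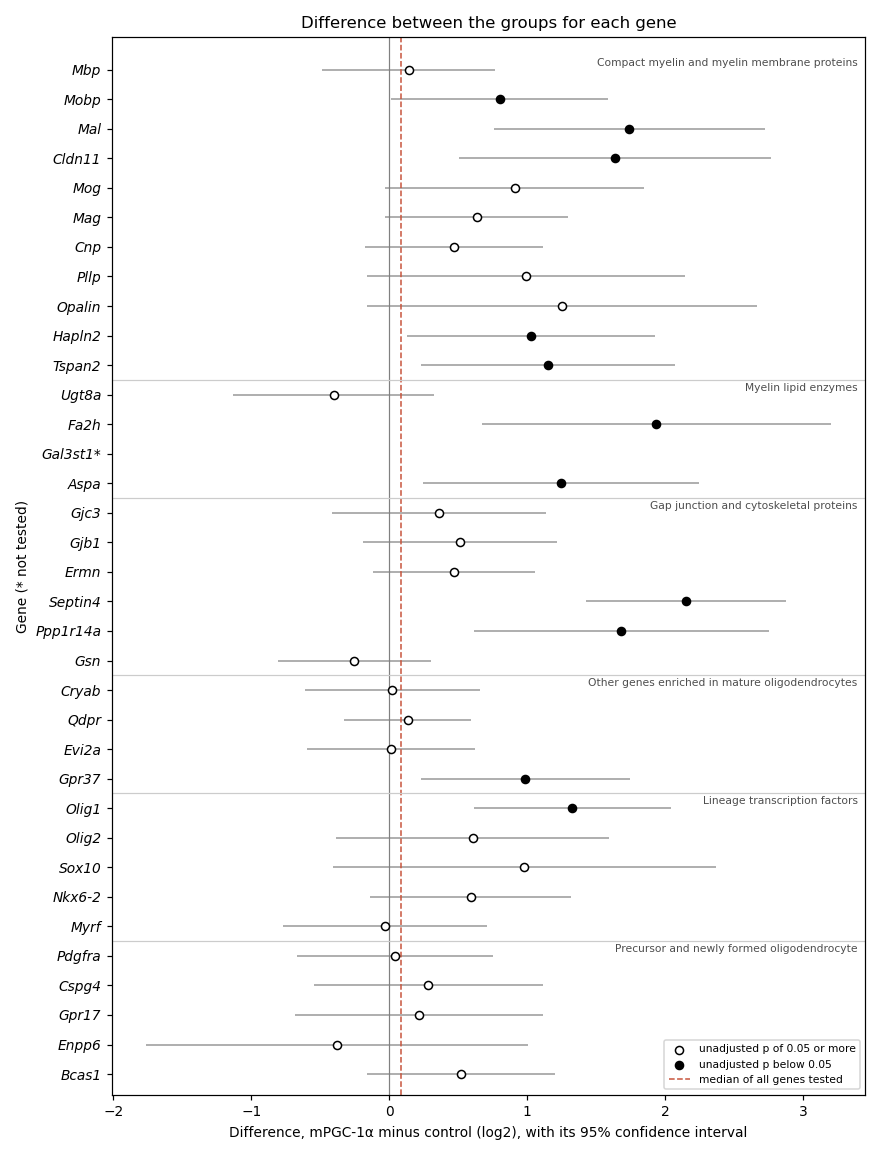
Each point is the mPGC-1α minus control difference of 1 gene in log2 units, from 3 arrays a group (2 where a spot was left out), with its 95% confidence interval as a line, and the dashed line is the median of all genes tested. Filled points, those with an unadjusted p below 0.05, number 11 and all lie above 0.8, and Gal3st1 was not tested.

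RNA of all 11 proteins of the myelin membrane was higher on average, with a median difference of 0.99, taking the probe with the highest mean for each gene. Mbp, the protein that glues the inner faces of the membrane together, stood at 2.74, 1.95 and 2.23 on the control arrays and at 2.29 and 2.60 on the first and second mPGC-1α arrays (difference 0.14, SE 0.27). The spot on mPGC-1α array 3 had been marked as an outlier and read 2.22. The groups overlapped, and the other Mbp probes differed by 0.25 and -0.46. In the second of these, control array 1 at 1.72 was far above control array 2 at -1.03.

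Mal, a small proteolipid that helps carry cargo to the myelin membrane, stood at -0.80, 0.10 and -1.51 on the control arrays. On the mPGC-1α arrays it stood at 1.74, 0.48 and 0.80, a difference of 1.74 (SE 0.44) or 3.34-fold. Every mPGC-1α array lay above every control array, with control array 2 the nearest to them. Cldn11, the claudin of the tight junctions between myelin layers, had levels of -1.21, -0.34 and -2.38 in the controls and of 1.06, -0.25 and 0.16 in the mPGC-1α samples (difference 1.63, SE 0.50, 3.11-fold). Its groups did not overlap either, but control array 2 and mPGC-1α array 2 were less than 0.1 apart.

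Hapln2, a link protein of the matrix around nodes of Ranvier, stood at -4.60, -4.00 and -4.76 on the control arrays and at -2.66, -3.75 and -3.86 on the mPGC-1α arrays (difference 1.03, SE 0.40). Tspan2, a tetraspanin of early myelin, had control levels of -1.84, -0.75 and -2.34 and mPGC-1α levels of 0.04, -0.82 and -0.69 (difference 1.15, SE 0.41). Hapln2 did not overlap between the groups, whereas for Tspan2 control array 2 lay above mPGC-1α array 2. Mobp, a structural protein of compact myelin, was read at -1.22, -0.68 and -1.51 in the controls and at 0.38, -0.70 and -0.69 in the mPGC-1α samples, a difference of 0.80 (SE 0.35). Mobp was highest on mPGC-1α array 1, and without that array its difference was 0.44. Its second probe had a larger difference of 2.21 (SE 0.54), with control levels of -3.28, -1.65 and -3.89 and mPGC-1α levels of -0.15, -1.29 and -0.74. The groups did not overlap on that probe.

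The remaining membrane proteins overlapped between the groups or lacked a value. Opalin, a sialylated membrane protein of oligodendrocytes, stood at -3.57, -2.16 and -4.55 in the controls and at -1.07, -2.76 and -2.70 in the mPGC-1α samples, a difference of 1.25 (SE 0.63). Pllp, a proteolipid, had levels of -2.85, -1.75 and -3.76 against -1.08, -2.41 and -1.89 (difference 0.99, SE 0.51). In both genes control array 2 was higher than mPGC-1α arrays 2 and 3, and the only array above it was mPGC-1α array 1. Mog, on the outer surface of the sheath, stood at -1.60, -1.74 and -2.87 against -0.47, -1.73 and -1.27 (difference 0.91, SE 0.42), and its second probe differed by 0.22. Mag, which faces the axon, stood at -0.29, 0.29 and -0.57 against 0.90, 0.14 and 0.29 (difference 0.63, SE 0.30). Both had the highest level on mPGC-1α array 1 and the lowest on control array 3. Cnp, an enzyme of the cytoplasmic channels of myelin, stood at 0.30 and -0.38 on control arrays 1 and 3, at 0.36 in a marked spot on control array 2, and at 0.64, 0.37 and 0.27 on the mPGC-1α arrays (difference 0.47, SE 0.28).

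**Figure D2:**
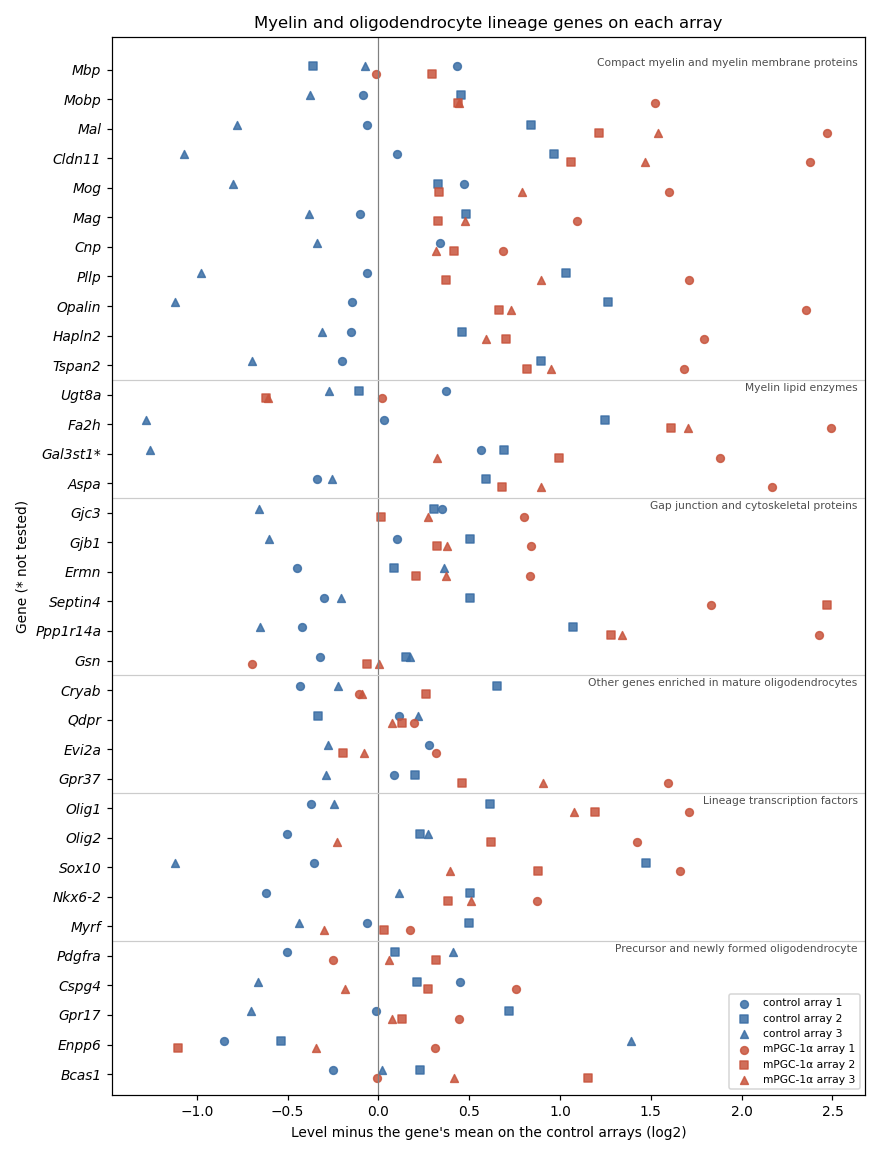
Each symbol is 1 array, placed by the level of the gene minus that gene's mean over the control arrays in log2 units, with control arrays in blue and mPGC-1α arrays in red and the symbol giving the array number. For Mal, Cldn11, Fa2h, Ppp1r14a and Olig1 every red symbol lies to the right of every blue one, and mPGC-1α array 1 is the farthest to the right in each.

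Enzymes of myelin lipids did not move as 1 class. Fa2h, which hydroxylates the fatty acids of galactosylceramide, stood at -3.37, -2.15 and -4.68 in the controls and at -0.91, -1.79 and -1.70 in the mPGC-1α samples, a difference of 1.94 (SE 0.56) or 3.83-fold with no overlap. Aspa, which splits N-acetylaspartate into acetate for lipid synthesis, stood at -4.57, -3.63 and -4.48 against -2.06, -3.54 and -3.33 (difference 1.25, SE 0.45), again with no overlap. Ugt8a, which makes galactosylceramide, had the opposite sign, with -3.10, -3.58 and -3.74 against -3.45, -4.09 and -4.08 (difference -0.40, SE 0.32). Its second probe differed by 0.48, so the direction of Ugt8a was not settled. Gal3st1, which sulphates galactosylceramide, was not tested because it was not well above background on control array 3 and mPGC-1α array 3, and it was read at -6.05, -5.93 and -7.88 against -4.74, -5.63 and -6.30.

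Genes of gap junctions and the cytoskeleton ranged from Septin4 and Ppp1r14a, more than 3-fold higher on the mPGC-1α arrays, to Gsn, which had the opposite sign. Septin4, a septin of the filaments that line mature myelin, stood at 0.29, 1.09 and 0.38 on the control arrays and at 2.42 and 3.05 on mPGC-1α arrays 1 and 2 (difference 2.15, SE 0.32, 4.45-fold). Its spot on mPGC-1α array 3 was marked and read 1.47, lower than the other mPGC-1α arrays but above every control. With that spot kept the difference was 1.73. The second Septin4 probe had control levels of -0.95, -0.71 and -0.95 and mPGC-1α levels of 0.62, 1.23 and -0.43 (difference 1.35, SE 0.37), with no overlap. Ppp1r14a, an inhibitor of myosin phosphatase, stood at -2.01, -0.52 and -2.25 against 0.83, -0.31 and -0.25 (difference 1.68, SE 0.47, 3.21-fold). Its groups did not overlap, although control array 2 came within 0.3 of mPGC-1α arrays 2 and 3.

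The connexin genes Gjb1 and Gjc3, which couple oligodendrocytes to their neighbours, differed less on their tested probes. A dimmer Gjc3 probe, well above background on 2 arrays of each group and not tested, was read at -5.58, -4.79 and -6.19 against -3.42, -4.41 and -5.62. Gjb1 stood at -0.86, -0.46 and -1.56 against -0.12, -0.64 and -0.58 (difference 0.51, SE 0.31), and Gjc3 at -1.66, -1.70 and -2.66 against -1.21, -1.99 and -1.74 (difference 0.36, SE 0.34). Ermn, a cytoskeletal protein of late oligodendrocytes, stood at 0.97, 1.51 and 1.78 against 2.25, 1.63 and 1.79 (difference 0.47, SE 0.26). All 3 overlapped between the groups. Gsn, which severs actin filaments and is also made by many other cells, was read at 1.58, 2.05 and 2.08 against 1.21, 1.84 and 1.91 (difference -0.25, SE 0.25). Its second probe differed by -0.86, with every mPGC-1α array below every control array.

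Of the other genes enriched in mature oligodendrocytes, Gpr37, a receptor of the glial surface, differed most, with -3.07, -2.96 and -3.45 against -1.57, -2.70 and -2.25 (difference 0.99, SE 0.34, 1.98-fold, no overlap). Cryab, a small heat shock protein also made by astrocytes, stood at 2.33, 3.41 and 2.54 against 2.65, 3.02 and 2.67 (difference 0.02, SE 0.28). Evi2a, a membrane protein, stood at 1.87 and 1.31 on control arrays 1 and 3, at 1.59 in a marked spot on control array 2, and at 1.91, 1.39 and 1.51 on the mPGC-1α arrays (difference 0.01, SE 0.27). Neither gene separated the groups. Qdpr, which recycles a pterin cofactor, stood at 1.80, 1.35 and 1.90 against 1.88, 1.81 and 1.75 (difference 0.13, SE 0.20). Its other probes differed by 0.52, with no overlap between the groups, and by 0.38, with mPGC-1α array 1 left out as marked.

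The transcription factors of the lineage were led by Olig1, a basic helix-loop-helix factor needed for repair of myelin. Olig1 stood at -2.17, -1.19 and -2.04 on the control arrays and at -0.09, -0.61 and -0.72 on the mPGC-1α arrays (difference 1.33, SE 0.32, 2.51-fold). The groups did not overlap, and the difference was close on the first slide (1.33) and on the second (1.32), which held only array 3 of each group. Its relative Olig2, which also marks precursors, had levels of -4.40, -3.66 and -3.62 against -2.47, -3.27 and -4.12 (difference 0.60, SE 0.44). Here the sign turned between slides, with 1.16 on the first and -0.50 on the second. Sox10, which drives the myelin genes directly, stood at -4.54, -2.71 and -5.31 against -2.53, -3.31 and -3.79, and its difference of 0.98 (SE 0.62) lay within a wide spread of the controls (SD 1.33, n = 3). Without control array 2 it was 1.71.

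Nkx6-2, a homeodomain factor of oligodendrocytes, stood at -2.74, -1.62 and -2.01 against -1.25, -1.74 and -1.61 (difference 0.59, SE 0.32). Myrf, the factor that turns on the late myelin genes, stood at -3.61, -3.05 and -3.98 against -3.37, -3.51 and -3.85 (difference -0.03, SE 0.33). The interval of the Myrf difference ran from -0.77 to 0.71, which leaves room for a change in either direction.

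Genes of precursors and newly formed oligodendrocytes gave no member with an unadjusted p below 0.05 in the fit without pairing, and all 5 overlapped between the groups. Pdgfra, the growth factor receptor of precursors and also of fibroblasts, stood at -3.19, -2.59 and -2.28 against -2.93, -2.37 and -2.63 (difference 0.04, SE 0.32), and its other probes differed by -0.64 and 0.44. Cspg4, a proteoglycan of precursors and pericytes, stood at -2.09, -2.32 and -3.20 against -1.78, -2.26 and -2.72 (difference 0.28, SE 0.37). Gpr17, a receptor of cells about to mature, stood at -4.69, -3.96 and -5.38 against -4.23, -4.55 and -4.60 (difference 0.22, SE 0.40). In all 3 genes the difference was smaller than its standard error.

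The newly formed stage is marked by Enpp6 and Bcas1. Enpp6, a choline phosphodiesterase, stood at -6.10, -5.79 and -3.86 against -4.94, -6.35 and -5.59 (difference -0.38, SE 0.61), and it was not well above background on mPGC-1α array 3. The high value of control array 3 set its sign, since without that array the difference was 0.32. The other Enpp6 probes were too dim to be tested. Bcas1, a protein of early myelinating cells, stood at -0.00, 0.48 and 0.27 against 0.24, 1.40 and 0.67 (difference 0.52, SE 0.30), and in limma with the replicate block its unadjusted p was 0.0387. Its second probe differed by -0.29.

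Across arrays, the median of the mature genes spread more widely than that of the precursor genes. The mature median, with each gene taken from its control mean, was -0.06, 0.49 and -0.36 on the control arrays and 1.56, 0.40 and 0.53 on the mPGC-1α arrays. Control array 2 thus stood as high as mPGC-1α arrays 2 and 3, and mPGC-1α array 1 stood alone at the top. The same median of the precursor and newly formed genes was -0.25, 0.22 and 0.02 on the control arrays and 0.31, 0.27 and 0.06 on the mPGC-1α arrays. The mature median minus the precursor median was 0.19, 0.28 and -0.38 in the controls and 1.25, 0.12 and 0.48 in the mPGC-1α samples, so that these groups overlapped. Of the 20 mature genes with 6 values, mPGC-1α array 1 was the highest in 16 and control array 3 the lowest in 14, while control array 2 was above mPGC-1α array 2 in 10 and above mPGC-1α array 3 in 9.

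**Figure D3:**
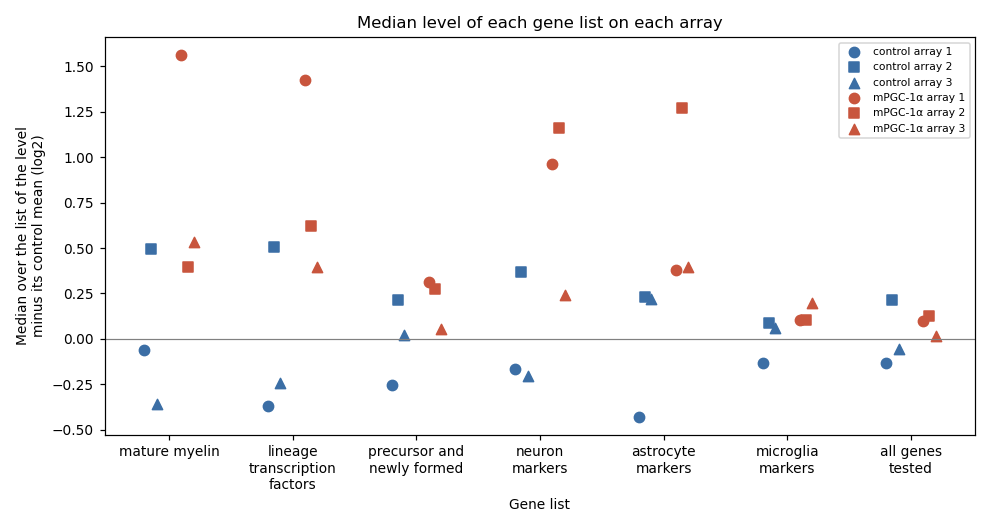
Each symbol is the median of 1 list of genes on 1 array, as log2 level minus the control mean of each gene, with control arrays in blue and mPGC-1α arrays in red. The mature myelin median is highest on mPGC-1α array 1 (1.56) and the astrocyte median on mPGC-1α array 2 (1.27), while the microglia median stays between -0.13 and 0.20.

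The same mature genes differed by a median of 0.75 on the first slide and of 0.95 on the second. The second slide held only control array 3 and mPGC-1α array 3, so its value compares 1 array with 1 array. Without mPGC-1α array 1 the median of the 34 members was 0.42, which was 0.35 above that of all genes. In that fit 6 members were at least 2-fold higher with an unadjusted p below 0.05, against 0.864% of all genes. Mobp was then 0.44, Hapln2 0.65, Aspa 0.79 and Septin4, taken from its second probe, 1.27. Septin4 on that probe was 0.97 without mPGC-1α array 2. Leaving out control array 3 also left 6 such members, against 0.615% of all genes. Without control array 2, the library that stood apart in Y-linked genes and Xist, 15 members were such, against 1.61% of all genes. In limma 7 members then passed the adjusted threshold of 0.05, namely Cldn11, Fa2h, Mal, Olig1, Ppp1r14a, Septin4 and Tspan2. Opalin was then 1.88, Sox10 1.71, Pllp 1.51, Mog 1.07, Mag 0.88, Nkx6-2 0.84 and Gjb1 0.76, each with an unadjusted p below 0.05 that it did not have with all arrays. In that fit 0.404% of all genes passed the adjusted threshold with a higher level on the mPGC-1α arrays and the median of all genes was 0.20. Taking the percentile over probes with outlier-marked spots left out, a choice made after seeing the data, together with the replicate number as a block brought 10 members past the threshold, against 1.39% of all genes. These were the same 7 genes with Aspa, Gpr37 and Opalin. The replicate block with the percentile used here brought none, and its smallest adjusted p among the members was 0.0728, for Septin4.

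RNA of other brain cells moved with the same groups. Of 10 neuron markers 9 were higher on the mPGC-1α arrays, with a median difference of 0.89. Their summed signal ran from 30.8 to 50.4 times the 75th percentile in the controls and from 48.9 to 56.2 in the mPGC-1α samples. Most of that sum was Snap25, at 4.84, 5.56 and 5.46 on the control arrays and 5.69, 5.48 and 5.52 on the mPGC-1α arrays. The Snap25 difference was 0.28 (SE 0.21). Of 9 astrocyte markers tested 8 were higher, with a median of 0.95 that was 0.37 without mPGC-1α array 2, and their sum ran from 8.14 to 12.5 and from 13.6 to 42.9. All 10 markers of each list were well above background on every array, except that 9 of the neuron markers were on control array 3. The order of the arrays differed between the lists, as the astrocyte median was 0.38, 1.27 and 0.39 on the mPGC-1α arrays and the neuron median 0.96, 1.16 and 0.24. The sum of the 30 members with 6 values was 20.01, 30.5 and 22.5 in the controls and 36.3, 30.1 and 28.7 in the mPGC-1α samples. This sum leaves out Mbp, Cnp, Septin4 and Evi2a, which lacked a value. Much of it came from Cryab, Gsn, Ermn and Qdpr, and other cells also make Cryab and Gsn. The part of these cells in the myelin differences was not tested.

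Medians of the other lists were closer to that of all genes (0.09), except the ependymal and choroid plexus list, which was lower. Of 12 microglia markers tested 7 were higher and 5 lower (median 0.16), and the sum of those with 6 values ran from 159 to 197 in the controls and from 204 to 213 in the mPGC-1α samples. Schwann cells make myelin outside the brain with partly the same genes. Their markers differed by a median of 0.21, with 4 of 5 higher, and sums of 18.5 to 26.5 and of 24.6 to 33.0, and 1 of the 6, Pmp2, was well above background on no array. Of 5 endothelial markers tested 4 were higher (median 0.21), of 4 ependymal and choroid plexus markers 1 was (median -0.47), and of 4 monocyte and neutrophil markers 1 was (median -0.07). With 1 array left out these medians ran from 0.066 to 0.32 for Schwann cells, from -0.0041 to 0.19 for endothelial cells, from -0.72 to -0.11 for ependymal and choroid plexus cells and from -0.30 to 0.26 for monocytes and neutrophils.

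Further genes of the myelin programme, from a list that shares no gene with the members, had a smaller median. Of 30 such genes 28 could be tested, 23 were higher and 5 lower, and the median difference was 0.41. An unadjusted p below 0.05 with a higher level was found for 9 of the 28 (32.1%), and with a lower level for 1, the fatty acid elongase Elovl7 (difference -0.84, SE 0.31). The smallest unadjusted p belonged to Apod, a lipocalin that binds lipids (1.64, SE 0.26). Cntn2, an adhesion protein beside the nodes, was among the other 8 (1.11, SE 0.39). Of 15 further precursor genes 13 could be tested, 11 were higher, and the median was 0.26. Only Ptprz1, a phosphatase that astrocytes make too, had an unadjusted p below 0.05 in that list (1.02, SE 0.35), and the next genes by p were the factor Sox8 (0.64, SE 0.31) and the calcium release channel Itpr2 (0.26, SE 0.19).

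**Figure D4:**
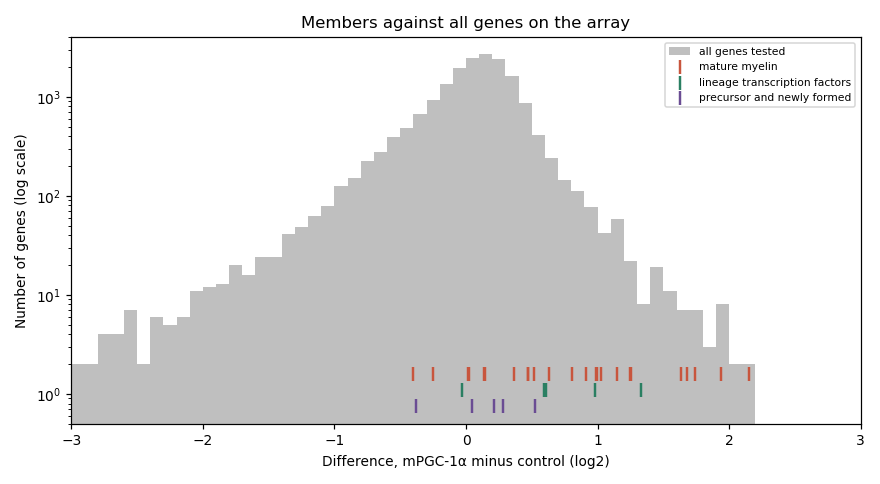
The grey bars count all 18222 genes tested by their mPGC-1α minus control difference in log2 units, on a log scale of gene number, and the coloured ticks mark the members of each class at heights chosen for display. The members lie between -0.40 and 2.15, mostly to the right of the median of all genes (0.09), and 15 genes fall outside the plotted range of -3 to 3.

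Promoter sequence of the members was examined over the 250 bases before each RefSeq start on build GRCm38.p6. The motifs sought on both strands were the SOX10 core (ACAAAG or ACAATG), the MYRF motif (CTGGCAC or CTGGTAC) and the OLIG2 E-box (CAGCTG). Windows were used for 26 of the 35 members, 39 windows in all, and for 7 of the 9 members that were at least 2-fold higher with an unadjusted p below 0.05, all but Fa2h and Olig1. The SOX10 core was in 38.5% of them and in 25.2% of all 32851 windows, the MYRF motif in 12.8% and 5.93%, and the OLIG2 E-box in 12.8% and 13%. Any member windows on a single chromosome were left out, but that chromosome was not left out of the count of all windows. Matches were in windows of 12 of the 26 genes for the SOX10 core, 4 for the MYRF motif and 4 for the E-box. Windows of a gene can overlap. A match of Mag or Gal3st1 was counted again in an overlapping window, so the shares do not count separate sites. The windows of Mal, Cldn11 and Ppp1r14a, all more than 3-fold higher, held none of these letters. Windows of Septin4, Hapln2 and Aspa are shown because these members are among those 7 and their windows held a match, with each match in capitals.
Septin4, chr11:87580811-87581060, plus strand: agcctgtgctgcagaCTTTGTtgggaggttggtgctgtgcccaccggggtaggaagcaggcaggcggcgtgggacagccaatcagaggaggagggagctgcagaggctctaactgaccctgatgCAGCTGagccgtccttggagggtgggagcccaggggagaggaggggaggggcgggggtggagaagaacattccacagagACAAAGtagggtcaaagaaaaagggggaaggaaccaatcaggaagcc
Hapln2, chr3:88027512-88027761, minus strand: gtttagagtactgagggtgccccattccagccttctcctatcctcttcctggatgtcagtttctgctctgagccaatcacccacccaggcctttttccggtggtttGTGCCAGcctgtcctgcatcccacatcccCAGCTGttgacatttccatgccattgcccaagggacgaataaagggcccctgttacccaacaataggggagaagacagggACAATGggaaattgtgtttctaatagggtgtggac
Aspa, chr11:73324638-73324887, minus strand: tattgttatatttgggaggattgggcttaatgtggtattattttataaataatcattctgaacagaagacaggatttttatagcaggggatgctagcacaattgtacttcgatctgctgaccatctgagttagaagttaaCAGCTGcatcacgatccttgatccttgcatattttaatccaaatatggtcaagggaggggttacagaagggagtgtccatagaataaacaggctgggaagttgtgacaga

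Hapln2 held each motif once, the SOX10 core 35 bases, the OLIG2 E-box 115 bases and the MYRF motif 144 bases before its start. This start of Septin4, 1 of 4 in the table, had the SOX10 core at 235 and 47 bases and the E-box at 126 bases, and the other 3 windows of Septin4 held none. Aspa had the E-box at 110 bases. Tspan2 had the SOX10 core at 42 bases in 1 of its 2 windows, which is not printed. In these windows no match of a motif shared bases with a match of another. The letters alone do not show that a factor binds there.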

How the data were processed

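Total RNA from the P2RY12-selected microglia was amplified, labelled and hybridised by the authors to Agilent mouse gene expression arrays, 1 array for each of 6 samples. The labels name Cy3 as the dye and the labelling protocol Cy5, and the 1 green channel in the files was used. The deposited scanner files hold linear intensity values for each spot, background-subtracted within the array by Agilent Feature Extraction 11.5.1.1 and not normalised between arrays. The deposited series matrix holds log2 values that the authors normalised in GeneSpring, and it served as an alternative.

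Levels were computed as log2 of the processed signal minus log2 of the array's 75th percentile over all spots that are not controls. Spots that the scanner software marked as outliers (549 to 4931 an array) were then left out, and spots of a probe were averaged. The percentile was taken before these steps. Averaging spots by probe first lowered it to between 0.751 and 0.766 times on every array, and leaving out marked spots lowered that to between 0.707 and 0.979 times, most on the arrays with most marked spots. Testing was limited to probes with 2 or more values in each group and a signal well above background on every unmarked array of a group, which left 40745 probes. No spot was saturated. The number of arrays limits the precision. Accessions matched a RefSeq table of assembly GRCm38.p6 for 33767 of 56605 probes, the probe with the highest mean stood for a gene, and the array design's older build gave no coordinates.

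Groups came from the genotype in the labels. They were compared with limma 3.58.1 in R 4.3.3 (lmFit, then eBayes with its trend on intensity; two-sided, Benjamini-Hochberg over all tested probes), and single genes also with an exact permutation test over all 20 assignments. No test for these arrays is named in the study's methods. Deviations of arrays with the same replicate number correlated at 0.247, 0.224 and 0.171, and those with different numbers at -0.337 to 0.0346. The main fit did not pair the samples. Replicate number entered as a block in alternative fits only, and these correlations come from the same data. The fit was tested on simulated data. All 35 members are named, and the first 3 genes by p of each further list, of which 1 is not reported here. The members, the lists of further genes and cell markers, the motifs and the alternatives were chosen with earlier results of these data known. Alternatives were quantile normalisation, normexp, the series matrix, other filters on dim or marked spots, slide and replicate blocks, no intensity trend, an average over a gene's probes, another percentile, and leaving out each array.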

Additional observations from a re-analysis of the deposited data

How the results depend on the processing

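With the percentile over probes with marked spots left out and the replicate block, chosen after seeing the data, 10 members passed the adjusted threshold. There 14 members were at least 2-fold higher with an unadjusted p below 0.05, against 1.42% of all genes, and 1720 probes of the whole array passed the adjusted threshold. With the planned replicate block 0 members and 1 probe passed. In that fit 16 members had an unadjusted p below 0.05 with a higher level. Without the block 11 members and 2.97% of all genes did. The share of all genes with the block is not given here, so that rise cannot be called particular to the members. With the block 10 members were at least 2-fold higher with such a p, against 0.999% of all genes. Leaving out 1 array gave 0 to 7 members past the threshold and 6 to 15 at least 2-fold higher, the top of each without control replicate 2, where 2130 probes passed. Of all genes 0.54% to 1.78% were at least 2-fold higher with such a p, and 1.61% without control replicate 2. The cause of the higher counts without control replicate 2 was not tested. The median of the members was 0.42 to 0.80 with 1 array left out, that of the mature genes 0.50 to 1.05, of the transcription factors 0.35 to 1.02 and of the precursor genes 0.10 to 0.39. No alternative gave any of these medians the opposite sign. Genes with small differences turned sign. Cryab was -0.083 with quantile normalisation, -0.044 with normexp and -0.072 in the series matrix, Evi2a -0.11, -0.24 and -0.067 in the same order and -0.038 with the slide block, and Myrf was above 0 with quantile normalisation and the series matrix (0.016 each) and 0.064 with the percentile over those probes, with or without the block. Mbp was -0.053 in the series matrix. With all probes of a gene averaged Mbp was -0.023, Pdgfra -0.052 and Ugt8a 0.040. With 1 array left out the ranges were -0.19 to 0.35 for Cryab, -0.14 to 0.12 for Evi2a, -0.25 to 0.22 for Myrf, -0.039 to 0.36 for Mbp, -0.21 to 0.25 for Pdgfra, -0.034 to 0.24 for Qdpr, -0.049 to 0.52 for Cspg4, -0.13 to 0.57 for Gpr17 and -0.80 to 0.32 for Enpp6. Signal over background limits the values of Gal3st1 and Enpp6, which were not well above background on every array.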
